A study of Mus musculus with 6 samples.

Results

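Glycolysis splits glucose to pyruvate in the cytosol and yields ATP without oxygen, and lactate dehydrogenase then turns pyruvate to lactate, which restores the NAD+ that glyceraldehyde-3-phosphate dehydrogenase needs. Expression was followed here for 10 genes of this pathway, taken in pathway order: Hk2, Pfkl, Pfkp, Aldoa, Tpi1, Gapdh, Pgk1, Pgam1, Eno1 and Ldha. They were chosen by name as enzymes of the pathway, and all probes annotated to them were taken. No annotated probe was found for Pgam1 and Eno1, which are not analysed here. The other 8 genes had 10 probes with an identifier of their own, among 9751 genes with a probe in all. All 8 were detected on at least 1 array and all 8 were tested, among 8881 tested genes. Many of these enzymes are known targets of hypoxia-inducible factor (HIF), which raises glycolysis when oxygen is short, and of Myc. Stromal stem cells from marrow and fat are known to rely on glycolysis while they proliferate, and the balance between glycolysis and oxidative phosphorylation is a known subject of study in their turn to osteoblasts or adipocytes.

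The cells were mesenchymal stem cells taken from dorsal and inguinal fat depots of C57BL/6 mice, with no genetic change given. They were expanded in a medium with 10% serum, then given an osteogenic medium with dexamethasone (0.1 µM), ascorbic acid (50 µM), β-glycerophosphate (10 mM), DMSO (0.4%) and 15% serum. Total RNA from days 0, 1, 3, 6, 10 and 14 was hybridised to Illumina bead arrays, with 1 array a day and no replicate. Day 0 stands for undifferentiated cells. No later array comes from cells kept out of the medium, so exposure to the medium and time in culture cannot be told apart, and the number of animals behind each culture is not given in the sources used here.

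Between 12891 and 13980 of 46613 probes were detected on an array, detected meaning a detection p-value under 0.01, and the highest signal on an array lay between 62522 and 66712. Of 8 stromal or mesenchymal stem cell markers, 6 had a probe and all 6 were detected on all 6 arrays. Their summed linear level lay between 62600 and 81204, but its members went opposite ways. Thy1, Eng and Cd44 fell (slopes of -0.43, -0.29 and -0.70 in the trend test described with the enzymes), Pdgfra rose (0.60), and Itgb1 and Pdgfrb did not pass. Of 6 adipocyte markers 3 had a probe, and their sum was 120.5, 267.3, 491.9, 1916, 1218 and 2261 on days 0, 1, 3, 6, 10 and 14. Of 7 osteoblast markers Sp7 and Alpl had a probe, and both fell. Their sum was 1915, 3904, 1494, 388.8, 138.6 and 215.0 over the same days, with 5 arrays that detected Sp7 and 4 that detected Alpl. Of 6 macrophage or blood cell markers only Cd14 had a probe, and it rose, with a level of 66.5, 241.3, 333.9, 421.8, 413.7 and 517.9 and detection on 5 arrays. Of 4 endothelial markers Kdr and Tek had a probe, both were detected on all 6 arrays, and neither passed. Their sum was 637.9, 408.4, 876.2, 935.1, 913.7 and 669.4 over the same days. None of the skeletal muscle and epithelial markers had a probe. Having a probe means an annotated one throughout, and gene symbols were available for only 17785 of the 46613 probes. A marker without one may still have been measured.

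The promoters of Hk2, Pgk1 and Ldha are shown because, of the 5 members that fell over the course, these 3 hold the letters ACGTG. These letters are a form of the core to which HIF and related factors bind. Other forms of that core, such as GCGTG, were not searched, so a window without a match here may still hold one. The sequences are RefSeq's for mouse (GRCm38.p6) and give the 250 bases before the listed start, 5′ to 3′ on the gene's strand. The capitals mark ACGTG on either strand, which reads CACGT on the other.
Hk2: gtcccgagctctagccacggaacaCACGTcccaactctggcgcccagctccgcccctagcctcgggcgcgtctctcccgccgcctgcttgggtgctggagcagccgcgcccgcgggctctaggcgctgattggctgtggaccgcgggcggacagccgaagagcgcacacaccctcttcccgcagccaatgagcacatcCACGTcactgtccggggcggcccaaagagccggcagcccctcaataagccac
Pgk1: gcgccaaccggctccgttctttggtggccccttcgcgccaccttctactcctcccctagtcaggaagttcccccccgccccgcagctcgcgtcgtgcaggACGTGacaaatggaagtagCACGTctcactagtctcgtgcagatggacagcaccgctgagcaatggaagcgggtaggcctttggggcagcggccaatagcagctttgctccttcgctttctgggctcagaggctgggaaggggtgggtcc
Ldha: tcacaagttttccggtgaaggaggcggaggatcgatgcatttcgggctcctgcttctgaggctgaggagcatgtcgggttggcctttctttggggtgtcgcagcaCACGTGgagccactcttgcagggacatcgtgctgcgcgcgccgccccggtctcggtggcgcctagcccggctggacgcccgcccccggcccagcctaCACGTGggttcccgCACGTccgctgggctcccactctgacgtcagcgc
The Hk2 window is chr6:82774455-82774704 on the minus strand, with matches that begin 226 and 52 bases before the start. The Pgk1 window is chrX:106186850-106187099 on the plus strand, with matches at 150 and 131 bases. The Ldha window is chr7:46845554-46845803 on the plus strand, with matches at 145, 48 and 34 bases. The matches at 145 and 48 bases are CACGTG, which holds the letters on both strands and is also the E-box that Myc binds. A second listed start of Ldha had no match in its window. Of the 8 measured members, 4 had a match in a window of at least 1 listed start (Aldoa is the fourth), against 25.5% of 7253 tested genes with a window in the table. The share was 30.0% of the 1269 genes that fell over the course and 22.4% of the 1320 that rose. A match here describes the letters only.

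On the normalized scale all 8 glycolytic enzyme transcripts lay below their day 0 level on each of the 5 later arrays. These 5 comparisons share the day 0 array, and the same count was not made over all genes. In deposited signal Hk2 was an exception, with 8252 on day 1 against 8047 on day 0. Gapdh was at 97.7% and 94.8% of the array maximum on days 0 and 1, so its difference between them is not resolved. The median log2 fold of day 14 over day 0 was -1.55 for the 8 members and 0.00 for all genes detected on either array. Over the course 5 of the 8 fell, namely Hk2, Tpi1, Gapdh, Pgk1 and Ldha, 0 rose, and Pfkl, Pfkp and Aldoa did not pass. In the same test 17.7% of all tested genes fell and 18.5% rose. The test is limma's two-sided test of a slope on log2(day + 1) through the 6 arrays, with Benjamini-Hochberg adjustment over 8881 genes at 0.05. A slope gives the change in log2 level for each unit of log2(day + 1), and its SE takes scatter about the straight line as error. The median slope of the 8 members was -0.32, against 0.00 over all tested genes. Fewer cells of a type and less RNA per cell cannot be told apart in such bulk samples.

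**Figure D1:**
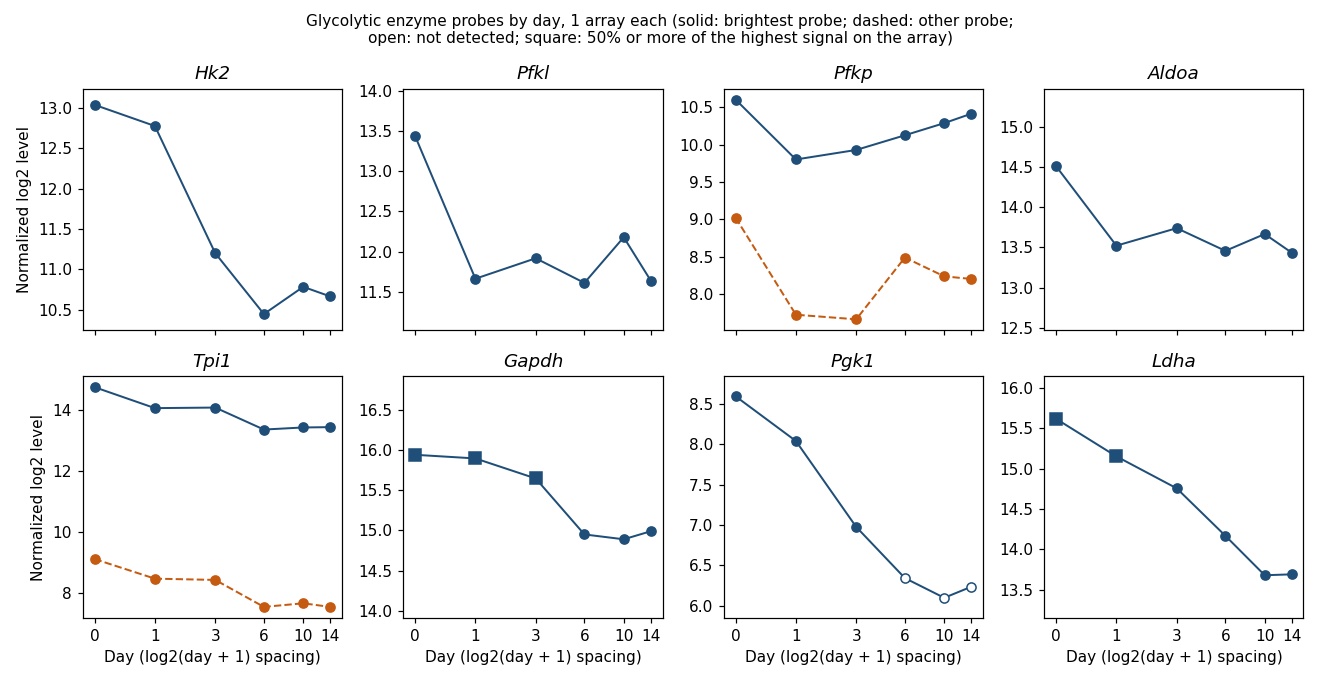
Normalized log2 level of each glycolytic enzyme probe (y axis, with a scale of its own in each panel) on days 0, 1, 3, 6, 10 and 14 (x axis), 1 array a day, in pathway order, with a dashed line for a second probe, open points where a probe was not detected and squares at 50% or more of the array maximum. Hk2, Gapdh, Pgk1 and Ldha go down over several arrays, whereas Pfkl and Aldoa are low from day 1 on and Pfkp is lowest on day 1 on its brighter probe.

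Hk2 codes for hexokinase 2, which traps glucose in the cell as glucose 6-phosphate and is the inducible hexokinase of muscle, fat and tumours. Its normalized log2 level was 13.04, 12.78, 11.20, 10.44, 10.78 and 10.66 on days 0, 1, 3, 6, 10 and 14. The arrays of days 0 and 1 were high, day 3 lay between, and those of days 6 to 14 were low, a grouping made after the values were seen. Set against day 0, Hk2 was lower by 1.20-fold on day 1, by 3.58-fold on day 3, by 6.05-fold on day 6 and by 5.20-fold on day 14. Its deposited signal was 8047 on day 0 and 8252 on day 1, so the direction of the day 1 difference depends on scaling between arrays. Its slope was -0.70 ± 0.117 (limma adjusted p = 0.00744). Hk1, the hexokinase found in most tissues, stood at 12.80 on day 14 against 13.22 on day 0, and its slope did not pass at -0.08 ± 0.0498 (adjusted p = 0.235).

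Phosphofructokinase commits sugar to glycolysis, and Pfkl and Pfkp code for its liver and platelet type subunits. The log2 level of Pfkl was 13.44, 11.66, 11.92, 11.61, 12.18 and 11.64 on days 0, 1, 3, 6, 10 and 14. Day 0 stood above all later arrays, which lay within 0.57 log2 units of each other. Pfkl was 3.41-fold lower on day 1 than on day 0, and the difference was still 3.47-fold on day 14. A straight line describes such a step poorly: the slope was -0.30 ± 0.141 (adjusted p = 0.131), it passed when day 1 was left out (adjusted p = 0.0391), and without day 0 it was 0.042 (adjusted p = 0.779). Pfkp was lower early and then drew near its day 0 level, with log2 levels of 10.60, 9.80, 9.93, 10.13, 10.29 and 10.41 on days 0, 1, 3, 6, 10 and 14. The difference to day 0 was 1.74-fold on day 1 and 1.14-fold on day 14, both lower, with a slope of 0.01 ± 0.0905 (adjusted p = 0.957). The dimmer second probe of Pfkp, detected on all 6 arrays, had 9.02, 7.72, 7.66, 8.49, 8.24 and 8.20 on days 0, 1, 3, 6, 10 and 14. Both probes were low on days 1 and 3, and the second stayed further below day 0. Pfkm, which codes for the muscle type subunit, lay between 11.57 on day 1 and 12.17 on day 14, with a slope of 0.11 ± 0.0600 (adjusted p = 0.191).

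Aldolase A, the product of Aldoa, cleaves fructose 1,6-bisphosphate into 3-carbon sugars. Its log2 level was 14.51, 13.52, 13.74, 13.46, 13.67 and 13.43 on days 0, 1, 3, 6, 10 and 14. As with Pfkl, day 0 was high and the later arrays lay close together, within 0.30 log2 units. Aldoa was 1.98-fold lower on day 1 than on day 0, and 2.10-fold on day 14. The slope was -0.20 ± 0.0786 (adjusted p = 0.0856). It passed with each array scaled to the same median (0.0497), with no scaling between arrays (0.0377) and without day 1 (0.0252), and was -0.03 without day 0 (0.805). Triosephosphate isomerase, coded by Tpi1, interconverts the products of aldolase. Tpi1 had log2 levels of 14.74, 14.05, 14.07, 13.35, 13.42 and 13.43 on days 0, 1, 3, 6, 10 and 14, so its arrays formed 3 plateaus. Its slope was -0.34 ± 0.0629 (adjusted p = 0.00957), and without day 0 the adjusted p was 0.0505. A dimmer second probe of Tpi1 had the same course, with 9.11 on day 0, 8.47 on day 1 and 7.55 on day 14. Fitted across 15504 probes, of which 18% fell, its slope was -0.41 ± 0.0771 (adjusted p = 0.00938).

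**Figure D2:**
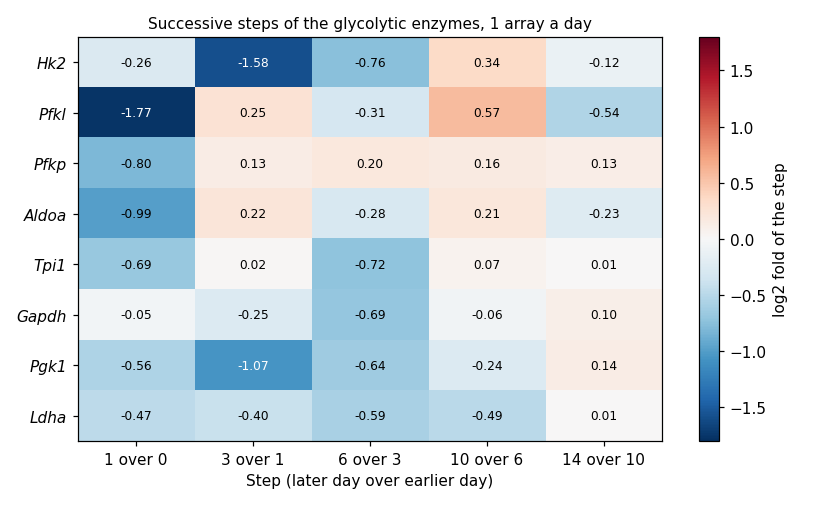
Log2 fold of each successive step (columns, later day over earlier day) for the 8 measured glycolytic enzymes (rows, pathway order), 1 array a day. The largest falls of Pfkl (-1.77), Pfkp (-0.80) and Aldoa (-0.99) are in the step to day 1, that of Hk2 (-1.58) in the step to day 3, and those of Gapdh (-0.69) and Ldha (-0.59) in the step to day 6.

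Gapdh codes for the enzyme that oxidises glyceraldehyde 3-phosphate and is widely used as a reference gene. The deposited signal of its uniquely named probe was 62255, 62019, 54029, 31975, 28491 and 29510 on days 0, 1, 3, 6, 10 and 14. The high signals of days 0, 1 and 3 stand apart from those of days 6 to 14. They were 97.7%, 94.8% and 81.0% of the highest signal on their arrays, so the size of the early differences is not resolved on this probe. On the normalized scale Gapdh was 1.03-fold lower on day 1 than on day 0, and the difference was 1.98-fold on day 6 and 1.93-fold on day 14. The slope was -0.31 ± 0.0566 (adjusted p = 0.00937).

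A further identifier annotated to Gapdh heads 4 entries of the deposited table, each with signals of its own, and which of them belongs to the annotated probe is settled only for the entry that the series matrix also holds, entry 1. All 4 entries had the same course. Entry 2, the dimmest, had 36288, 33087, 23956, 14099, 11858 and 11742 on days 0, 1, 3, 6, 10 and 14, which is 57.0% of the array maximum on day 0 and 18.8% on day 14. Fitted with all probes that have an identifier, the 4 entries were 2.29-fold, 3.06-fold, 2.11-fold and 2.98-fold lower on day 14 than on day 0. Their slopes ran from -0.45 ± 0.0441 (entry 2, adjusted p = 0.00249) to -0.33 ± 0.0512 (entry 3, adjusted p = 0.00595). The fold was thus larger on each of the 4 entries than the 1.93-fold of the uniquely named probe, which is the brightest of the 5 on every array. In the authors' deposited table the fold lower on day 14 was 1.94 for that probe and 2.29, 3.04, 2.11 and 2.98 for the 4 entries.

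**Figure D3:**
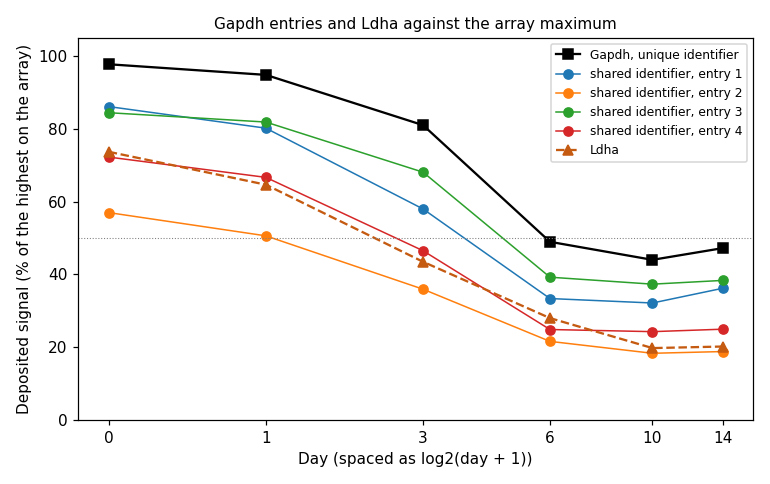
Deposited signal as percent of the highest signal on the same array (y axis) by day (x axis) for the uniquely named Gapdh probe, the 4 entries that share a Gapdh identifier, and Ldha. The dotted line marks 50%. The uniquely named probe starts at 97.7% on day 0 and is at 47.2% on day 14, and Ldha is at 73.7% on day 0 and 20.2% on day 14.

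Pgk1 codes for phosphoglycerate kinase 1, which carries out the first ATP-yielding step. Its only probe was dim, with a deposited signal of 464.1, 393.9, 222.1, 178.1, 166.0 and 172.6 on days 0, 1, 3, 6, 10 and 14. The probe was detected on days 0, 1 and 3 and was not well above background on days 6, 10 and 14, where the detection p-values were 0.0206, 0.0356 and 0.0268. Its highest signal was 0.728% of the array maximum. On the normalized scale Pgk1 was 1.47-fold lower on day 1 than on day 0, and 3.08-fold on day 3. These sizes are not settled either: the authors' deposited table gave 1.34-fold and 2.16-fold. The day 3 detection p-value was 0.00936, just under the cutoff of 0.01. For days 6, 10 and 14, where the probe was not detected, the size depends on how background is treated. The day 14 log2 fold over day 0 was -2.36, but -1.40 without background correction. The authors' deposited table gave 2.71-fold, 2.91-fold and 2.79-fold lower on days 6, 10 and 14. The slope was -0.68 ± 0.0913 (adjusted p = 0.00469), and without background correction it was -0.39 (adjusted p = 0.00515). Pgk1 met the detection filter only through days 0, 1 and 3, where it was high, so its call is weak support. When only probes detected on all 6 arrays were tested, Pgk1 was left out and 4 of 7 members fell.

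Ldha codes for the lactate dehydrogenase subunit that favours the making of lactate. Its log2 level was 15.62, 15.15, 14.76, 14.17, 13.68 and 13.69 on days 0, 1, 3, 6, 10 and 14, so each array up to day 10 lay below the one before. Set against day 0, Ldha was lower by 1.38-fold on day 1, by 1.82-fold on day 3, by 2.74-fold on day 6 and by 3.81-fold on day 14. The slope of -0.53 ± 0.0458 (adjusted p = 0.00220) had the lowest p of the 8 members. Ldha stayed past the threshold without any single day, with an adjusted p of at most 0.0150. The probe was at 73.7% and 64.6% of the array maximum on days 0 and 1, which makes its early values less certain in size.

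**Figure D4:**
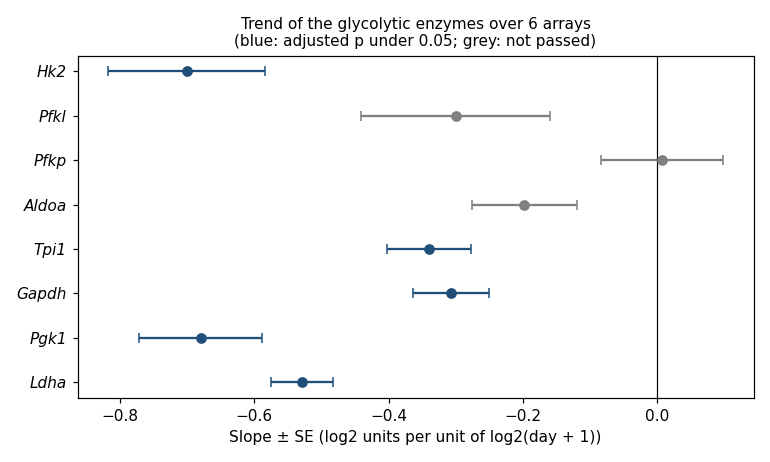
Slope ± SE (x axis, log2 units per unit of log2(day + 1)) of the 8 measured glycolytic enzyme genes in pathway order (y axis), from limma over 6 arrays. Hk2 sits at -0.70, Pgk1 at -0.68 (but -0.39 without background correction), Ldha at -0.53 and Pfkp at 0.01, and the 3 genes in grey did not pass.

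The members differed in when they were low. By day 1 Pfkl had gone 98.7% and Aldoa 91.9% of the way, on the log2 scale, to their day 14 value, while for Tpi1 it was 52.4%, Ldha 24.1%, Pgk1 23.5% and Hk2 11.1%. For Gapdh the share was 4.77% on the uniquely named probe, which was near the array maximum on both days, and 18.1%, 24.2%, 13.2% and 23.9% on the 4 dimmer entries, so its place among these is not settled. Pfkp was lower on day 1 than on day 14, and the day 14 value of Pgk1 is at background. Across the 6 arrays the levels of Pfkl and Aldoa had a Pearson correlation of 0.98, those of Gapdh and Ldha 0.96, and those of Hk2 and Pfkp 0.02. These values describe arrays that all genes share and carry no test. At least 2-fold lower than day 0 were 1 of 8 members on day 1, 3 on day 3 and 6 on each of days 6, 10 and 14. The share of all genes detected on either array that were at least 2-fold lower was 3.65%, 4.41%, 11.1%, 15.1% and 14% on those 5 days. No member was at least 2-fold higher on any day, against 3.97%, 7.39%, 13.5%, 16.1% and 16.1% of all genes. These comparisons share the day 0 array. From one array to the next, 2 members (Hk2 and, at 2.09-fold with background correction, Pgk1) were at least 2-fold lower on day 3 than on day 1, against 5.62% of all genes, and 0 were 2-fold higher, against 8.69%. On day 6 over day 3, 7 of 8 were lower but 0 by 2-fold (5.98% of all genes lower and 6.69% higher by that much). The median log2 fold of that step was -0.61 for the members and -0.02 for all genes. On day 10 over day 6, 5 of 7 were higher, again 0 by 2-fold (4.28% of all genes lower and 1.29% higher). Here the medians were 0.16 and 0.01. Counts of genes lower or higher by any amount were not made over all genes for these steps. Between day 14 and day 10 the 7 members detected on either array differed by 1.45-fold at most (Pfkl), and 0 were 2-fold lower or higher, against 0.252% and 0.961% of all genes.

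The call of fallen rests in part on day 0. Without day 0, 4 of the 8 members fell, since Tpi1 lost its call, and without day 1 it was 7, since Pfkl and Aldoa passed. Hk2, Gapdh, Pgk1 and Ldha passed without each single day in turn. The highest adjusted p was 0.0287 for Hk2, 0.0395 for Gapdh, 0.0238 for Pgk1 and 0.0150 for Ldha. For Pgk1 these fits rest on late values at background. Markers of dividing cells were also lower late. Of 6 such markers 4 had a probe, Top2a, Cdk1, Birc5 and Plk1, and all 4 fell. Their summed linear level was 14809, 26082, 10908, 2242, 769.8 and 945.7 on days 0, 1, 3, 6, 10 and 14. Top2a and Birc5 were detected on 4 arrays each and were at background on days 10 and 14. Unlike the normalized levels of the 8 enzymes, the summed level was higher on day 1 than on day 0. The part of cell division, and of the adipocyte, osteoblast, stromal, endothelial and Cd14 levels given above, in the enzyme levels was not tested.

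The other genes of the pathway with a probe went both ways. Of 17 further isozymes 8 were tested, of which 2 fell, 1 rose and 5 did not pass, with a median slope of -0.13. Over all tested genes 17.7% fell and 18.5% rose, and no list count here or below was tested against those shares. Pkm, which codes for the muscle type pyruvate kinase of the last ATP-yielding step, fell at -0.49 ± 0.0735 (adjusted p = 0.00583). Its log2 level was 15.35, 15.09, 14.90, 13.88, 13.56 and 13.77 on days 0, 1, 3, 6, 10 and 14, which puts it among the late fallers, with 62.6% of the array maximum at its highest. Ldhb, the lactate dehydrogenase subunit typical of heart, went the other way from Ldha and rose at 0.42 ± 0.106 (adjusted p = 0.0221), with 11.66 on day 14 against 10.34 on day 0. Ldhb was lowest on day 1, at 9.69, and lost its call without day 10 or day 14 (up to 0.0975). Pgam2, the muscle phosphoglycerate mutase, was the other isozyme that fell, but was detected on 1 array only. No probe annotated to Eno1 was found. Of the other enolases Eno2 had 9.82 on day 14 against 8.56 on day 0 (slope 0.40 ± 0.159, adjusted p = 0.0880) and Eno3 had 9.15 against 9.82 (slope -0.17 ± 0.0984, adjusted p = 0.202).

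Genes that feed the pathway and set its rate also split. Of 6 tested glucose and lactate transport genes 2 rose and 2 fell, against 18.5% and 17.7% of all tested genes. Slc2a1, the widespread glucose transporter GLUT1, fell at -0.29 ± 0.0709 (adjusted p = 0.0209) and was lower than on day 0 by 1.60-fold on day 1 and by 2.55-fold on day 14. It lost its call without day 0 or day 14 (up to 0.149). Slc2a6 fell at -1.02 ± 0.276 but was detected on 3 arrays, and its call ended without day 1, 6, 10 or 14 (up to 0.108). Slc2a3, the high-affinity transporter GLUT3, rose at 0.39 ± 0.0564 (adjusted p = 0.00557) with a day 14 level 2.85-fold that of day 0, and Slc2a8 rose at 0.33 ± 0.0820, a call that ended without day 10 or day 14 (up to 0.0710).

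Of 6 tested regulators of glycolytic flux 2 rose and 2 fell, against 18.5% and 17.7% of all tested genes. Pfkfb3, which makes the phosphofructokinase activator fructose 2,6-bisphosphate, fell at -0.53 ± 0.168 (adjusted p = 0.0432). Its log2 level was 9.50, 7.88, 6.99, 6.73, 7.55 and 7.02 on days 0, 1, 3, 6, 10 and 14. It was detected on 5 arrays, and its call held only with day 3 left out, with an adjusted p up to 0.417 (without day 0). Tigar, which degrades the same activator, fell at -0.28 ± 0.0691 and lost its call without day 0 or day 10 (up to 0.128). Txnip, a glucose-responsive inhibitor of glucose uptake, rose at 1.00 ± 0.174 (adjusted p = 0.00820) to 8.04-fold above day 0 on day 14, with up to 86.9% of the array maximum. Pfkfb2, another isoform of the kinase, rose at 0.43 ± 0.0887 and lost its call without day 14 (0.0590).

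At the exit to the mitochondria, 3 of 10 tested genes of pyruvate dehydrogenase and pyruvate entry rose and 1 fell. The shares of all tested genes were 18.5% and 17.7%. Pdk4, a kinase that switches pyruvate dehydrogenase off, rose at 1.60 ± 0.138 (adjusted p = 0.00220). Its level was 8.59, 10.22, 11.24, 13.82, 14.52 and 14.23 on days 0, 1, 3, 6, 10 and 14, so that day 14 stood 49.7-fold above day 0. Pdp1, a phosphatase that switches the complex on, rose too, at 1.10 ± 0.137 (adjusted p = 0.00430), and was 12.9-fold higher on day 14. Pdk1, the kinase known as a HIF target, was 6.45-fold lower on day 1 than on day 0, and 7.03-fold on day 14, with levels of 10.93 on day 0 and 8.24 on day 1. It fell at -0.56 ± 0.183 (adjusted p = 0.0481), a call that held only with day 1 left out (up to 0.522, without day 0). Pdha1, a subunit of the enzyme itself, had 13.46 on day 14 against 13.39 on day 0, and its slope did not pass at 0.03 ± 0.0450 (adjusted p = 0.580).

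**Figure D5:**
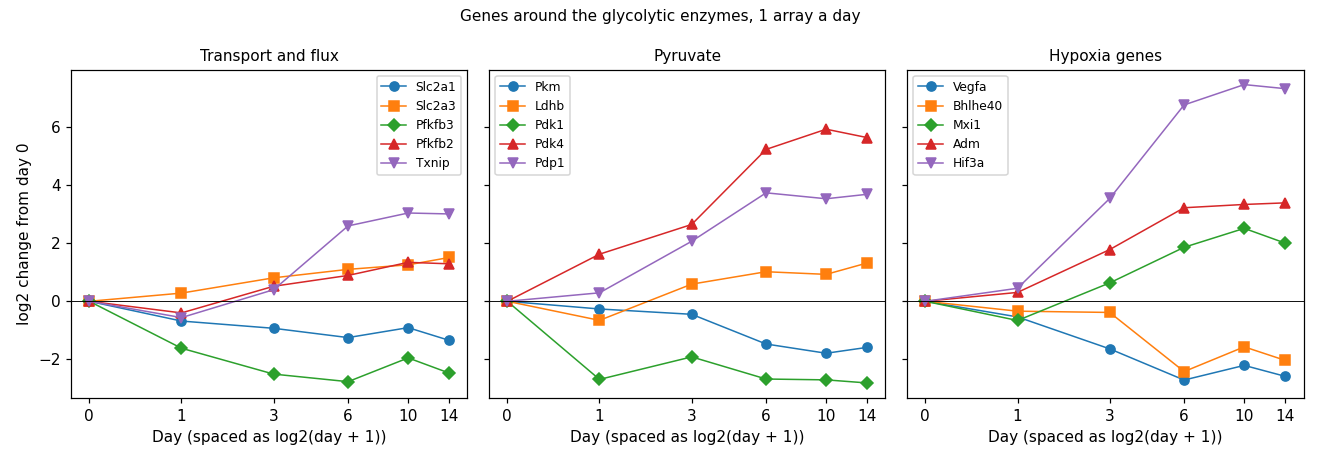
Log2 change from day 0 (y axis) by day (x axis), 1 array a day, for genes of glucose transport and flux (left), pyruvate (middle) and hypoxia (right). Pdk4 ends 49.7-fold and Txnip 8.04-fold above day 0, Pdk1 lies at least 3.77-fold below day 0 on every later day, and Hif3a was not detected on days 0 and 1, so its change is measured from background.

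The branches off the pathway had calls in both directions, as did all tested genes, of which 18.5% rose and 17.7% fell. In the pentose phosphate pathway 2 of 6 tested genes rose and 2 fell. Rpe, which codes for ribulose phosphate epimerase, rose at 0.69 ± 0.103, and H6pd, the glucose 6-phosphate dehydrogenase of the endoplasmic reticulum, at 0.58 ± 0.0867. Taldo1, transaldolase, fell at -0.24 ± 0.0701 and lost its call without day 1, 6, 10 or 14 (up to 0.103). Tkt, transketolase, fell at -0.21 ± 0.0531 and lost its call without day 10 or day 14 (up to 0.105). Among 8 tested genes of the glycerol phosphate and glycogen branches 2 rose and 1 fell. Gyg, which codes for glycogenin, the primer of glycogen, rose at 0.63 ± 0.128 (lost without day 14, 0.0680). Gys1, the muscle glycogen synthase, fell at -0.41 ± 0.105 and was 2.46-fold lower on day 1 than on day 0 (lost without day 0 or day 14, up to 0.188). Of 3 tested gluconeogenic genes 1 rose, Pcx, pyruvate carboxylase, at 0.34 ± 0.106. Pcx was detected on 4 arrays and lost its call without day 0, 6, 10 or 14 (up to 0.349).

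On the normalized scale all 8 glycolytic enzymes were lower on day 1 than on day 0, by 1.03-fold (Gapdh) to 3.41-fold (Pfkl). The deposited signal of Hk2 was not lower, and Gapdh was near the array maximum on both days. Most genes of several other lists were lower too. Lower on day 1 were 7 of 8 further isozymes, 5 of 6 transport genes and 6 of 7 genes of the glycerol phosphate and glycogen branches, with median log2 folds of -0.32, -0.69 and -0.68. Of 14 other HIF target and hypoxia genes, Pdk1 among them, 13 were lower on day 1 than on day 0, 6 of them at least 2-fold (3.65% of all genes), with a median log2 fold of -0.77, against -0.62 for the 8 enzymes and -0.01 for all genes. On day 10, 7 of the 14 hypoxia genes were lower and 7 higher than on day 0, 4 and 6 of them at least 2-fold, against 15.1% and 16.1% of all genes. On that day 8 of 8 enzymes were lower, 6 of them at least 2-fold. Over the course 4 of the 14 hypoxia genes rose, 4 fell and 6 did not pass, while 18.5% of all tested genes rose and 17.7% fell. Vegfa, an angiogenic growth factor, fell at -0.71 ± 0.103 (adjusted p = 0.00557), with levels of 12.73, 12.19, 11.09, 10.02, 10.52 and 10.14 on days 0, 1, 3, 6, 10 and 14, lowest on day 6 as Hk2 was. The transcription factor gene Bhlhe40 fell at -0.58 ± 0.140 and lost its call without day 14 (0.0752). Adm, a vasodilator peptide, rose at 1.01 ± 0.104 and Mxi1, a Myc antagonist, at 0.75 ± 0.149. Adm reached 69.1% of the array maximum.

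Ndrg1 and Ddit4, named after their values were seen, were lower on day 1 and higher on day 14 than on day 0: Ndrg1 had 6.83 on day 1 and 11.07 on day 14 against 9.65 on day 0 (it was detected on 5 arrays and its day 1 level is at background), and Ddit4 had 9.31 on day 1 and 12.37 on day 14 against 10.95 on day 0. Their slopes did not pass (adjusted p = 0.0839 and 0.0530). Of 6 tested hypoxia sensors and transcription factors 1 rose and 0 fell, against 18.5% and 17.7% of all tested genes. Hif3a, a HIF family member that can restrain the others, rose at 2.22 ± 0.223 (adjusted p = 0.00284), with log2 levels of 8.66, 11.88, 12.58 and 12.44 on days 3, 6, 10 and 14. It was detected on 4 arrays, days 3 to 14, so background limits its slope. Myc stood at 6.99 on day 14 against 7.51 on day 0 (slope -0.11 ± 0.102, adjusted p = 0.417), and Hif1a and Epas1 had no annotated probe.

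The 5 genes outside these lists most like the enzymes were Il20ra, Lpin2, Lrp12, Xpot and Nars. Likeness is the Pearson correlation over the 6 arrays with the mean of the 7 members detected on all arrays, each centred on its own mean. The values ran from 0.996 for Il20ra, an interleukin receptor subunit, to 0.992 for Nars, a tRNA synthetase. Of 6994 genes compared, 311 reached 0.9 or more, so the 5 named are the top of a larger set, picked for their likeness on 6 arrays. The mean of the 7 enzymes stood 0.95 log2 units above its own average on day 0, 0.24 above on day 1, 0.01 above on day 3, and below it on days 6, 10 and 14, by -0.44, -0.33 and -0.42.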

How the data were processed

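Total RNA of 6 cultures, 1 for each day, was biotin-labelled and measured on Illumina bead arrays. The authors deposited a signal intensity for every probe on every array, on a linear scale and without normalization, beside a detection p-value named in the file headers. A further deposited table holds a signed fold (a score here) of each later array over day 0, with falls as negative numbers. How that table was scaled, and whether background was subtracted, is not stated in any source used here. The signal columns were matched to days through the series matrix, where 17785 of 17785 values per array were equal within a relative tolerance of 1e-05. Entries without an identifier (6) or with a repeated one (30) were not used, and 46613 probes remained.

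Signals were background corrected with nec of limma 3.58.1 (R 4.3.3), with an offset of 16 and the detection p-values, then quantile normalized, then taken to log2. A gene took its probe with the highest mean, and was tested if that probe had a detection p-value under 0.01 on at least 1 array. Symbols came from the platform annotation (13805 probes with 1 symbol, 3 with several, 3977 with none among those of the series matrix). The remaining probes of the 46613 carried no annotation here, so a gene without an annotated probe may still have been measured. The slope on log2(day + 1) was tested with lmFit and eBayes with an intensity trend, with 4 residual degrees of freedom. The script was tested on simulated data. Single days have no replicate and no test. A p-value sets the slope against the scatter of the arrays about the line, not against the spread between cultures. Precision is limited by having 6 arrays and, for dim probes, by background.

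The members and lists were chosen with earlier results of these data known, so no set test was run. Apart from the members, the genes named are the 2 called genes with the largest slope in each direction of each list, detected on at least 3 arrays, and the 5 genes most like the members. Hk1, Pfkm, Pgam2, Eno2, Eno3, Pdha1, Myc, Ndrg1, Ddit4 and the markers were named after their values were seen. Alternatives were other scalings, background settings, filters, probe rules, time scales, variance models, a curved trend and leaving out each day. The probes' sequences were not used here, so signal from near-identical copies of these genes, such as pseudogenes, could not be told apart.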

Additional observations from a re-analysis of the deposited data

How the results depend on the processing

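The number of glycolytic enzyme genes that fell was 5 and lay between 4 and 7 under all 16 alternatives, and 0 rose in any of them. With single days left out it ran from 4 (without day 0) to 7 (without day 1). Over all tested genes, where 1570 fell and 1647 rose, a linear and a quadratic term tested together gave 858 fallen and 970 risen. Leaving out day 10 gave 639 and 768, and leaving out day 14 gave 431 and 590. With single days left out the fallen ran from 431 to 1584 and the risen from 590 to 1659. The other 13 of 16 alternatives kept both counts within 1.5 times. Of 131 slopes of the members under an alternative 121 kept their direction and their side of the threshold. With single days left out the slope of Pfkl ran from -0.417 (without day 1) to 0.0417 (without day 0, a change of sign). That of Pfkp turned to -0.0370 with the mean of its probes, and without day 1, 10 or 14 it was also below 0, with a range from -0.0514 (without day 1) to 0.214 (without day 0), so its main value of 0.01 has no settled sign. The day 14 fold of Pgk1 on the log2 scale was -2.36, and -1.40 without background correction and -1.48 in the authors' deposited table. Its slope of -0.68 was -0.39 without background correction, with the call kept. The day 14 log2 fold of Pfkp was -0.19, and -0.0314 with median scaling and -0.0949 with none. Chosen after seeing the data, the 4 entries of the repeated Gapdh identifier all passed. No paired analysis was possible because each day has 1 array. Signal near the array maximum limits Gapdh and Ldha, and background limits Pgk1.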
